A study of Mus musculus with 29 samples.

Results

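The Sall1 locus was taken here as the mouse Sall1 gene (ENSMUSG00000031665.7, chromosome 8, 89027235 to 89044162, minus strand, GRCm38) with 500 kb on each side. All peaks of the 25 deposited lists that overlapped this window by at least 1 bp were kept, each start and end counted once per list. That gave 784 of 1008691 distinct regions. The 13 IRF8 lists contributed 162, the PU.1 lists 42, the H3K27ac lists 287 and the H3K4me1 lists 293. Within the window the regions were taken by position alone, not by the values of the peaks. The locus itself was chosen with earlier results of these data known.

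The data are from CUT&RUN, in which an antibody guides a nuclease to its target on chromatin and the released DNA is sequenced. IRF8 was mapped with an antibody to GFP in female IRF8-EGFP mice, which express a fusion protein. The cells were FACS-sorted microglia from 3 ages, with 4 libraries from pups at 9 days after birth (P9), 3 from mice at 14 days (P14) and 3 from adults, and peritoneal macrophages with 3 libraries. PU.1, H3K27ac and H3K4me1 were mapped in adult microglia of WT and IRF8KO mice, 2 libraries of each, and the growth protocol gives 3 months as the age of the WT and IRF8KO mice. The same 3 months was taken from it for the adult IRF8-EGFP mice, and the age of the macrophage donors is not given. All 13 IRF8 libraries therefore carry the tagged allele, and IRF8 itself was not mapped in the knockout, so these lists hold no check of the deletion. The labels describe the 4 P9 libraries as part of 7, and the 2 IRF8KO H3K27ac libraries as part of 3. They do not say whether replicates are separate animals, so every spread and p-value below measures only the difference between these samples.

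Sall1 encodes a zinc-finger transcriptional regulator of the spalt family, which among brain cells is used as a marker of microglia and helps to maintain their identity. PU.1 is the ETS factor that marks out myeloid enhancers, and IRF8 is an interferon regulatory factor that binds many of the same sites, often with PU.1 on a composite motif. H3K4me1 marks enhancers in general, and H3K27ac marks those that are active.

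The window has 2 unlike sections. On the downstream side, 88527235 to 88751945 (224.711 kb), lie the genes Snx20, Nod2 and Cyld and part of Nkd1, which starts outside the window. From the end of Cyld, 275.29 kb downstream of Sall1, to the upstream edge of the window, 88751946 to 89544162 (792.217 kb), Sall1 is the one protein-coding gene, and the next, Tox3, starts 1202.88 kb upstream of Sall1, outside the window. The longer part is called the Sall1 stretch below, and it held 544 of the 784 regions. Distances are from the Sall1 start at 89044162, and upstream means higher coordinates.

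IRF8 peaks of different libraries that overlapped were joined into elements. The 6 sequences here are windows of 300 bases, plus strand, GRCm38, in 6 elements of the Sall1 stretch that had a peak in at least 2 adult IRF8 libraries and that the results turn on. Each window is centred on the part of the element that most adult libraries covered, which need not be its midpoint, and each name starts with the distance upstream. Capitals mark matches, on either strand, to 5 motifs that were searched: the ETS-IRF composite (GGAA, 2 bases of any kind, GAAA), the interferon-response-like motif (GAAA, 2 bases, GAAA), the ETS core GGAAGT, the AP-1 site TGANTCA and a MEF2-like motif (CTA, 4 bases, TAG).
360 kb, chr8:89404475-89404774: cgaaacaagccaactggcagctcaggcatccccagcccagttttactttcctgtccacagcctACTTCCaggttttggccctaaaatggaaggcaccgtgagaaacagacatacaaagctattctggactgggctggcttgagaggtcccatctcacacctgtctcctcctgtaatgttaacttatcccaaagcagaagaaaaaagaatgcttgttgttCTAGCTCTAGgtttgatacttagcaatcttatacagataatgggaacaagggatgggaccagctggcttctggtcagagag
365 kb, chr8:89409240-89409539: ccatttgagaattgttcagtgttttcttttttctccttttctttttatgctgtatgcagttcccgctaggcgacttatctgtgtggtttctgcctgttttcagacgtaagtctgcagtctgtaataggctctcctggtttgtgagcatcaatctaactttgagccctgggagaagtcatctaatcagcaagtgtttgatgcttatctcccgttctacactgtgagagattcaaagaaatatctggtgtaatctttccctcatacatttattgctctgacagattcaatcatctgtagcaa
242 kb, chr8:89286351-89286650: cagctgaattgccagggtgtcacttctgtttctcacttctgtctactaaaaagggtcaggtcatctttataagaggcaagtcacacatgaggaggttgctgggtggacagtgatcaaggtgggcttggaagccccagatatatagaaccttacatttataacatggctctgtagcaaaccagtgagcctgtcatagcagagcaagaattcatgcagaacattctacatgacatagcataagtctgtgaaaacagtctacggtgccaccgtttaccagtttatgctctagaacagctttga
349 kb, chr8:89392783-89393082: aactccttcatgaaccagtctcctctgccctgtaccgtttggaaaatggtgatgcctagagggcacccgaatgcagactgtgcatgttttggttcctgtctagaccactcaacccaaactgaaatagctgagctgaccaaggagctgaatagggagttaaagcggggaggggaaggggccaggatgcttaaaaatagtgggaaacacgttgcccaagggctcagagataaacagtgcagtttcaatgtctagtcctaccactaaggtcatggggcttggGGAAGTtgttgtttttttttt
67 kb, chr8:89111159-89111458: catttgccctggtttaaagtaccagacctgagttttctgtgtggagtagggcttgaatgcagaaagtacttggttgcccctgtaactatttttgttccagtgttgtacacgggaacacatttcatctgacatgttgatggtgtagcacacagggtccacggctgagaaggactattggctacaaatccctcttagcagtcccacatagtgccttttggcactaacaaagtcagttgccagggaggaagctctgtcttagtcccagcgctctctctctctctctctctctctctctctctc
12 kb, chr8:89055899-89056198: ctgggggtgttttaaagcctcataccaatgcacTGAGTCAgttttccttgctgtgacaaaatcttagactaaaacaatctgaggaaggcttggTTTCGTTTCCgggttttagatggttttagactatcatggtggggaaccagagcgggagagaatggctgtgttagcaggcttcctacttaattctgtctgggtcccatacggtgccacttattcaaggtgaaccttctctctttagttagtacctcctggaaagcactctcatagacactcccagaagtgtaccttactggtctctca

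The sequence at 360 kb held an ETS core and a MEF2-like match, the one at 349 kb an ETS core, and the one at 12 kb a composite and an AP-1 match, while those at 365, 242 and 67 kb held none of the 5. In all 17 such windows of the Sall1 stretch, 12 held none. The composite was found in 2 of 17 (11.8%), against 10.4% of 16934 windows of the same kind across the genome, and the ETS core in 3 of 17 (17.6%) against 40.1%. The interferon-response-like motif was in none of the 17, against 6.32%, and the AP-1 and MEF2-like motifs were in 1 each (5.88%), against 10.0% and 4.84%. In windows of the same length placed 1 kb to the right, the composite was in 0 of 17 (genome 3.04%) and the ETS core in 5 of 17 (29.4%, genome 17.0%), more of the stretch than at the centres. With windows set on the peak summits the ETS core was in 5 of 17 (29.4%, genome 36.5%). A composite match can overlap a match to the ETS core or to the interferon-response-like motif. The 3 Sall1 promoters in the RefSeq table (GRCm38.p6, 300 bases each) held 1 ETS core in all, in the promoter at 89042813 to 89043112, and no match to the other 4 motifs, and 23.8% of 32851 RefSeq promoters held that core.

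**Figure D1:**
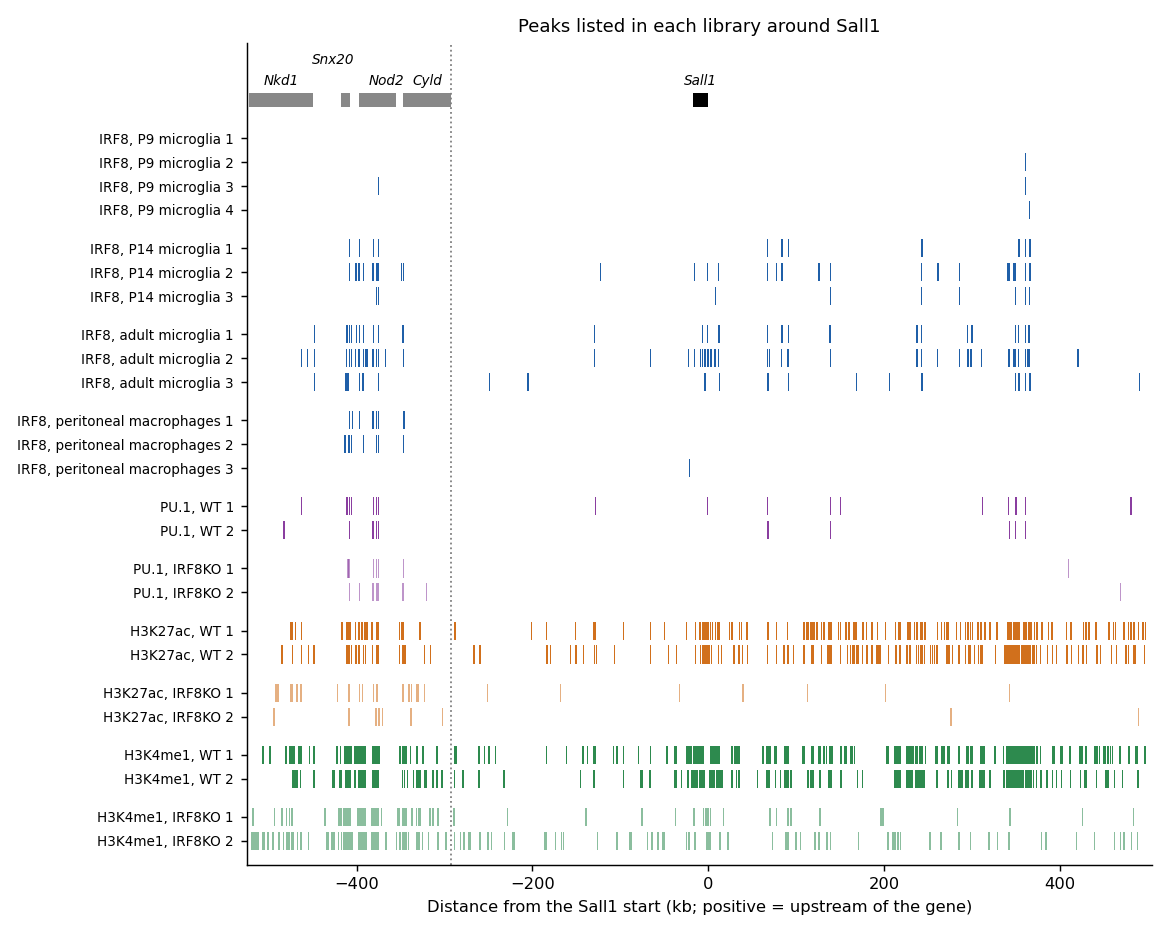
Peaks of each of the 25 libraries (rows) by distance from the Sall1 start in kb, with the genes at the top. Bars span peaks, drawn at least 1.5 kb wide so that they can be seen, pale bars are IRF8KO libraries, and the dotted line marks the end of Cyld. The rows of WT H3K27ac are filled right of the line and those of IRF8KO H3K27ac are nearly empty there.

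IRF8 peaks in the Sall1 stretch were few at P9, present in every library at P14 and in adult microglia, and nearly missing from peritoneal macrophages. The P9 libraries listed 0, 1, 1 and 1 regions there, the P14 libraries 7, 18 and 7, the adult libraries 16, 32 and 14, and the macrophage libraries 0, 0 and 1. The lowest adult library was above every macrophage and P9 library, whereas the P14 and adult ranges overlapped. In the Nkd1 to Cyld block the macrophage libraries listed 7, 8 and 0 regions, beside 10, 16 and 7 in adult microglia, so there the groups overlapped. Each library pools many cells, so a site bound in fewer cells and a site bound less in each cell cannot be told apart.

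Depth differed between the libraries: the adult libraries with 16 and 14 regions had 7.51 and 7.25 M (mega) fragments, and the macrophage libraries had 15.8 to 21.5 M. The adult library with 32 regions had 24.7 M. List length differed as well, from 1168 to 2068 distinct regions at P9, 7931 to 19243 at P14, 17048 to 29667 in adult microglia and 9788 to 23163 in macrophages. The caller set each stage or tissue against its own control library.

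Over the whole window the count per library averaged 1 ± 0.816 for P9 microglia (SD, n = 4). For P14 microglia it was 15.7 ± 9.87, for the adult cells 31.7 ± 14.4 and for peritoneal macrophages 5.33 ± 3.79 (SD, n = 3 each). The exact two-sided permutation test gave p = 0.0286 (adjusted 0.0571 over 4 comparisons) for P14 against P9 and the same for adult against P9. These are the smallest p-values these group sizes allow, so no comparison could pass an adjusted 0.05. Adult against macrophages differed by 26.3 regions (exact permutation p = 0.1, adjusted 0.133), again the smallest p for 3 against 3, and adult against P14 by 16 (exact permutation p = 0.3). Without adult replicate 2 the latter was 7.83, and without P14 replicate 2 the P14 and P9 means differed by 9 rather than 14.7.

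As a share of each list, the window took 6.56 ± 4.43 regions per 10000 in P9 microglia (SD, n = 4). The P14 share was 13.1 ± 1.49, the adult share 13.6 ± 3.69 and the macrophage share 2.92 ± 1.85 (SD, n = 3 each). The adult and P14 shares differed by 0.532, less than their spread (exact permutation p = 0.8). P14 against P9 differed by 6.51 (exact permutation p = 0.0571) and adult against P9 by 7.04 (exact permutation p = 0.0857), both adjusted 0.133. The P9 and adult shares overlapped, with P9 replicate 3 at 9.67 and adult replicate 3 at 9.37. The adult and macrophage shares did not overlap and differed by 10.7 (exact permutation p = 0.1, adjusted 0.133). The adult and macrophage libraries came in 2 labelled batches: within batch 1 (2 libraries each) the adult share was higher by 11.9, and within batch 2 (1 each) by 8.34.

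**Figure D2:**
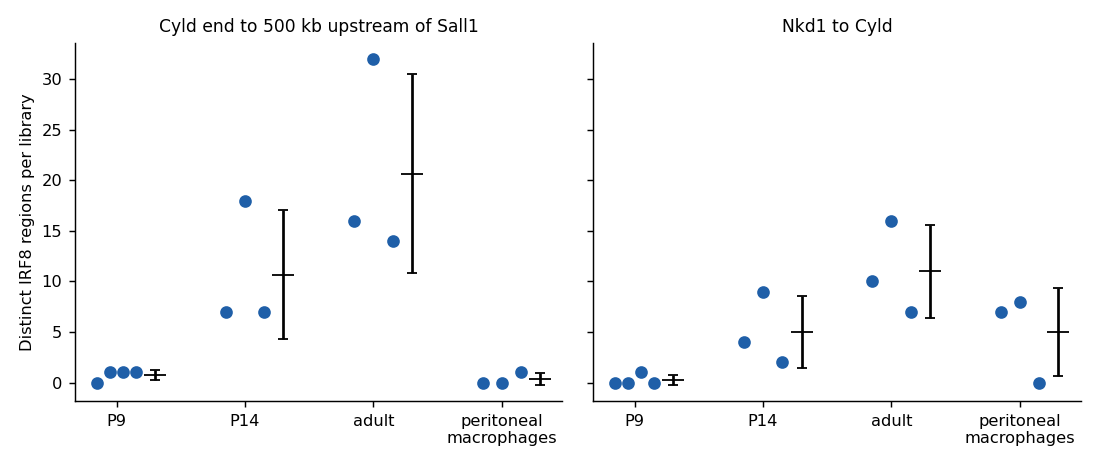
Distinct IRF8 regions per library (y axis) in the Sall1 stretch (left) and in the Nkd1 to Cyld block (right) for P9, P14 and adult microglia and peritoneal macrophages. Points are libraries, and black marks are the mean with the SD; the macrophage points sit at 0, 0 and 1 on the left and at 7, 8 and 0 on the right.

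The peaks of the 13 IRF8 libraries joined into 42 elements in the Sall1 stretch, 183 to 2536 bp wide (median 757 bp). Of these, 37 lay between genes and 5 overlapped Sall1. Upstream of the start lay 30 and downstream 12. A peak in at least 2 libraries was found for 23, and 19 rested on 1 library, among them elements seen in adult replicate 2 alone (9) or adult replicate 3 alone (5). By stage, 20 elements were listed in adult libraries alone, 15 in P14 and adult, 2 in P9, P14 and adult, and 4 at P14 alone. The single macrophage element was 183 bp wide and was seen in no microglial library.

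Peak strength is given below as a percentile: the place of the region's −log10 p among all distinct regions of the same list, from 0 (weakest) to 100. The element with a peak in the most libraries (8) lay 360.6 kb upstream, between genes (89403670 to 89405766). Its percentiles were 34.2 and 22.6 in P9 replicates 2 and 3, 69.7, 94.6 and 97.0 at P14, and 88.5, 98.1 and 95.8 in adults, and the authors' fold enrichments there ran from 4.30 at P9 to 19.8 in an adult library. The P9 lists are far shorter than the adult lists, and each stage had its own control library. Neither the places nor the fold enrichments can therefore be compared between stages. The element at 360.6 kb overlapped WT PU.1, H3K27ac and H3K4me1 elements, and no IRF8KO list had a peak of any of the 3 on it.

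A second element 364.9 kb upstream (89408148 to 89409994) was listed in P9 replicate 4 at percentile 6.41, at P14 at 9.16, 58.5 and 86.8, and in adults at 67.7, 84.9 and 85.6. No PU.1 element overlapped it. The element 242.1 kb upstream (89285604 to 89286894) was in no P9 list and in all 6 P14 and adult lists, at 95.4, 97.8 and 79.4, and at 98.8, 99.4 and 95.7. Its fold enrichment reached 25.2, the highest of any IRF8 peak in the Sall1 stretch. It too had no WT PU.1 element, although it had both histone marks in WT and no peak of the 3 targets in IRF8KO.

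The elements 349.0 and 67.0 kb upstream each carried a WT PU.1 element and were seen in 5 libraries. At 349.0 kb (89392530 to 89393885) the adult percentiles were 70.4, 89.4 and 92.9, and 2 P14 libraries had 76.3 and 64.9. At 67.0 kb (89110716 to 89111566) they were 60.2, 78.0 and 79.4 in adults and 15.9 and 58.5 in 2 P14 libraries. Close to the gene, the element 11.6 kb upstream (89054908 to 89056596) spread widely over the adult libraries, at 28.8, 76.6 and 98.1, and was in 1 P14 library at 32.4.

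At the promoter itself (89042615 to 89044655, over an exon of Sall1) IRF8 peaks were in 3 libraries: adult replicates 1 and 2 listed it at 41.2 and 59.9, and P14 replicate 2 at 6.70. No P9 or macrophage library had a peak within 2 kb of the start. The top peak of the stretch was the element at 242.1 kb in adult replicates 1 and 2, and the element at 11.6 kb in replicate 3.

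**Figure D3:**
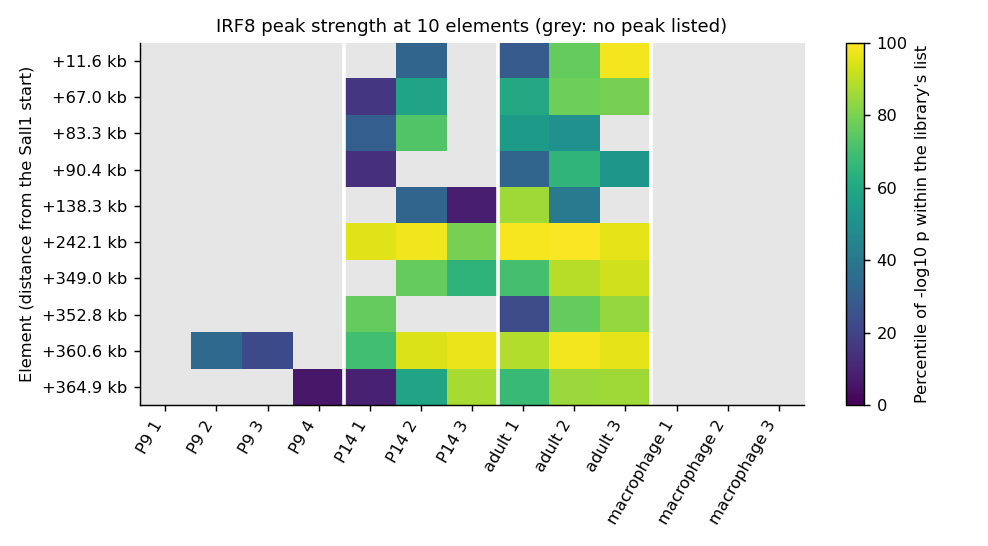
Percentile of −log10 p within each library's list (colour) at the 10 IRF8 elements of the Sall1 stretch with peaks in the most libraries (rows, by distance from the Sall1 start in kb) in the 13 IRF8 libraries (columns). Grey means that no peak was listed; all 3 macrophage columns are grey, and the P9 columns hold 3 peaks, the highest at 34.2.

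An element with a peak in at least 2 of the 3 adult libraries is called an adult IRF8 element. Of the 17 in the Sall1 stretch, all 17 had no peak in any macrophage library, where the genome-wide share was 39.9% of 16935. In the Nkd1 to Cyld block it was 3 of 10. The number of adult elements in the stretch depends on the libraries: it was 9 without adult replicate 1, 8 without replicate 2 and 16 without replicate 3. P9 peaks were missing from 15 of 17 (genome 83.7%) and P14 peaks from 6 of 17 (genome 26.8%), both near the background.

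The neighbouring genes give the contrast by name. Within 2 kb of Nod2, an intracellular sensor of bacterial cell walls, 4 of 4 adult IRF8 elements had a macrophage peak. Of 3 at Snx20, a sorting nexin, 2 did, as did the 1 at Cyld, a deubiquitinase of NF-κB signalling, whereas the 1 at Nkd1, a Wnt inhibitor, and the 3 at Sall1 did not. The strongest case was in Nod2 at 88668512 to 88669631: it stood at 93.3 and 82.6 in macrophage replicates 1 and 2, and at 80.5, 97.9 and 99.7 in adult microglia. This element kept PU.1, H3K27ac and H3K4me1 peaks in both IRF8KO lists of each target.

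In adult WT microglia, 16 of the 17 IRF8 elements overlapped an H3K27ac element (genome 81.8%), 15 an H3K4me1 element (genome 91.3%) and 4 a PU.1 element (genome-wide 4580 of 16935). A WT element here is a stretch called in both WT libraries. The same 10 IRF8 elements that the plot of peak strength shows lay upstream of Sall1, and 9 of the 10 had WT H3K27ac, 9 WT H3K4me1 and 4 WT PU.1. None of the 10 had a PU.1 or H3K27ac peak in an IRF8KO list, and 2 had an H3K4me1 peak. Over the 17 adult IRF8 elements the numbers with such a peak were 0, 0 and 6, and over all 16935 the shares were 40.0%, 67.5% and 93.7%. The one without WT histone marks was 83.3 kb upstream, with IRF8 percentiles of 54.5 and 50.6 in 2 adult libraries.

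PU.1 was bound at few places in the Sall1 stretch, and those had no PU.1 peak in IRF8KO. The WT libraries listed 10 and 5 regions there and the IRF8KO libraries 1 and 1, while in the Nkd1 to Cyld block the counts were 7 and 5 in WT and 6 and 7 in IRF8KO. The genotypes did not overlap in the stretch and did overlap in the block. With 2 libraries against 2, a permutation test cannot go below p = 0.33, so no test is given for this or the next comparisons.

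The 5 WT PU.1 elements lay 66.9, 138.4, 341.6, 349.2 and 360.4 kb upstream. The one at 360.4 kb (89404158 to 89404953) ranked highest, at percentiles 70.6 and 70.7 in the 2 WT libraries. The one at 341.6 kb (89384885 to 89386540) ranked lowest, at 26.2 and 28.7. All 5 overlapped WT H3K27ac (genome 91.1%) and H3K4me1 (genome 95.9%), 4 overlapped an adult IRF8 element (genome 87.4% of 5359) and all 5 a peak of at least 1 adult IRF8 library (genome 95.3%).

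Absent from both IRF8KO lists were 5 of these 5, against 25.1% of 5359 WT PU.1 elements genome-wide and 0 of 4 in the Nkd1 to Cyld block. The genome share was 47.7% without WT replicate 1 (5 of 5 in the stretch), 58.6% without WT replicate 2 (10 of 10) and 62.6% for elements of any WT library (10 of 10). Each IRF8KO library instead had 1 peak elsewhere, 409.2 kb upstream in replicate 1 (percentile 15.6) and 468.1 kb upstream in replicate 2 (30.1), and neither was in a WT list. The second PU.1 replicate of each genotype was called at a looser q-value, 0.05 against 0.01. In WT the PU.1 elements of the block were mostly stronger, at mean percentiles of 66.4 to 92.5 against 27.4 to 70.6 in the stretch. The part of peak strength in the contrast between stretch and block was not tested.

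H3K27ac peaks were nearly missing from the Sall1 stretch in IRF8KO. The 2 WT libraries listed 112 and 101 regions covering 117.5 and 119.3 kb, and the 2 IRF8KO libraries 7 and 2 regions covering 2.29 and 0.556 kb. IRF8KO replicate 1 had the longest H3K27ac list of the 4, 88400 distinct regions against 72354 and 72875 in WT. Replicate 2 had the shortest list, 31524 regions, and the fewest fragments, 8.57 M. In the Nkd1 to Cyld block the WT lists held 20 and 19 regions and the IRF8KO lists 19 and 7, so the low replicate was lower there too. The length covered in the block was 20.5 and 21.8 kb in WT and 11.6 and 5.11 kb in IRF8KO, lower in both IRF8KO libraries. Of the length of WT H3K27ac elements genome-wide, IRF8KO peaks covered a mean of 30.2% and 7.84%, and in the stretch 0.0295% and 0%.

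Of the 51 WT H3K27ac elements in the stretch, 50 were absent from both IRF8KO lists, against 34.0% of 36697 genome-wide. In the block it was 4 of 12, with 6 listed in 1 IRF8KO library and 2 in both, and 10 of 12 without IRF8KO replicate 1. Read against replicate 1 alone, 50 of 51 elements in the stretch were absent (genome 37.3%), and against replicate 2 alone 51 of 51 (genome 72.9%). With all 4 lists cut to their strongest 31524 regions, 14 of the 14 elements left were absent (genome 35.4%). WT H3K27ac regions had median percentiles of 38.3 and 46.0 in the stretch and 53.5 and 65.0 in the block.

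Of the 51, 13 overlapped an adult IRF8 element (genome 35.3%). Absent were 12 of these 13 and all 38 others, and with 50 of 51 absent the counts cannot show whether absence went with IRF8 here. Genome-wide, 2713 of 12943 elements with an adult IRF8 element were absent and 9778 of 23754 without one. Overlap with a peak of any adult IRF8 library was found for 18 of the 51, so 33 had none (genome-wide 53.6% had one). The elements were 332 to 15536 bp wide (median 1581 bp), and 45 lay upstream of the start and 6 downstream.

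The strongest WT H3K27ac element lay 242.2 kb upstream (89284465 to 89288314), under the strongest IRF8 peaks, at percentiles 98.2 and 99.7 with authors' fold enrichments of 11.2 and 17.0. Next came a 10005-bp element 362.5 kb upstream (89401679 to 89411683) at 94.2 and 96.6, which spans the IRF8 elements at 360.6 and 364.9 kb. The widest, 15536 bp at 346.4 kb (89382809 to 89398344), stood at 91.2 and 99.5. It was the one element not absent, because IRF8KO replicate 1 had a peak of 234 bp in it, at percentile 8.31.

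Among the 10 strongest, 2 had no adult IRF8 peak, 118.9 kb upstream (89162057 to 89164047, percentiles 96.1 and 88.5) and 228.8 kb upstream (89271300 to 89274705, 86.0 and 94.2). Both were absent in IRF8KO. Over the promoter, a 5194-bp element (89040541 to 89045734) covered coding and noncoding parts of Sall1 exons and the start, stood at 66.0 and 83.7 in WT, and was absent from both IRF8KO lists. The 9 IRF8KO regions in the stretch were 232 to 601 bp wide, and 3 of them overlapped a peak of a WT list.

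**Figure D4:**
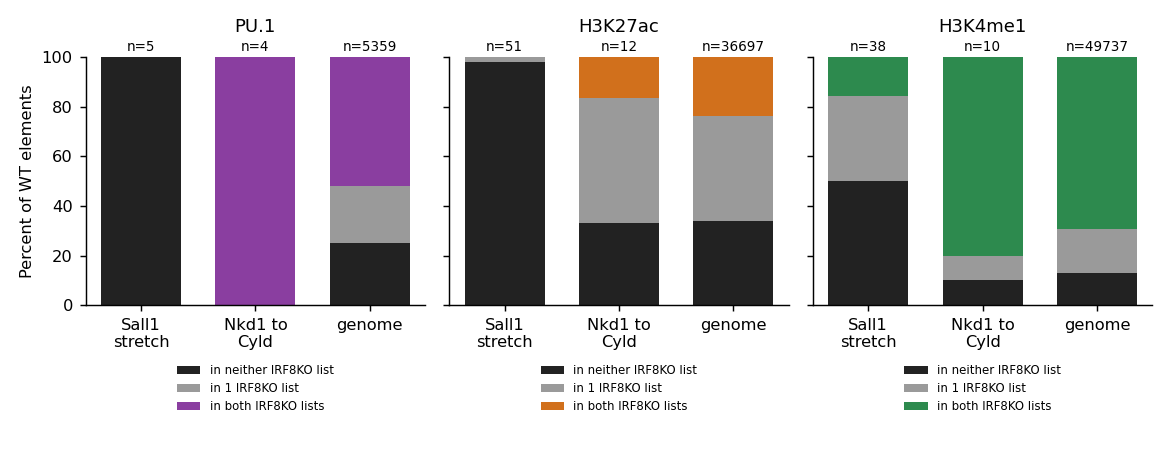
Percent of WT elements (y axis) of PU.1, H3K27ac and H3K4me1 found in neither, 1 or both IRF8KO lists, for the Sall1 stretch, the Nkd1 to Cyld block and the whole genome, with the number of WT elements above each bar. In the Sall1 stretch neither list held any of the 5 PU.1 elements, 50 of the 51 for H3K27ac or 19 of the 38 for H3K4me1.

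H3K4me1 peaks were fewer in IRF8KO but not missing. WT libraries listed 69 and 62 regions in the Sall1 stretch, covering 248 and 204 kb, and IRF8KO libraries 21 and 55, covering 33.7 and 105 kb. The genotypes did not overlap in either measure, although the 2 IRF8KO libraries were far apart: replicate 2 had 189351 distinct regions genome-wide and 23.9 M fragments, replicate 1 113370 and 15.8 M. In the Nkd1 to Cyld block the covered length was 68.3 and 62.1 kb in WT and 61.5 and 94.4 kb in IRF8KO.

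Of 38 WT H3K4me1 elements in the stretch, 19 were absent from both IRF8KO lists (genome 13.0% of 49737), 13 were in 1 list and 6 in both. In the block 1 of 10 was absent. The count moves with either IRF8KO list and with list length. It was 28 of 38 without IRF8KO replicate 2 (genome 24.7%) and 23 of 38 without replicate 1 (genome 19.0%). With all lists cut to 104818 regions it was 26 of 38 (genome 16.0%). It moves with the WT lists too, and then lies closer to the genome share: 34 of 62 without WT replicate 1 (genome 44.1%), 42 of 69 without WT replicate 2 (genome 33.0%) and 48 of 83 for elements of any WT library (genome 47.0%). An adult IRF8 element lay in 10 of the 38 (genome 24.2%), and a peak of any adult IRF8 library in 14 (genome 38.7%). Absence was found for 3 of the 10 and for 16 of the other 28, and genome-wide for 345 of 12047 with an adult IRF8 element and 6108 of 37690 without.

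Of the length of these 38 elements IRF8KO peaks covered a mean of 7.30% and 12.8% in the 2 libraries, against 52.8% and 56.7% for all 49737 WT elements. WT peaks covered a mean of 89.5% and 76.1% (genome 80.4% and 76.7%), which is high by construction, since the elements join the WT peaks. The widest element, 32658 bp around 354.6 kb upstream (89382412 to 89415069), was covered to 100% and 91.2% in WT and to 3.1% and 5.5% in IRF8KO. The 15372-bp element upstream of the start (89045337 to 89060708) was covered to 76.5% and 93.1% in WT and to 9.5% and 24.0% in IRF8KO. More was left of an element 89.1 kb upstream (89130365 to 89136181), covered to 91.4% and 100% in WT and 44.8% and 64.0% in IRF8KO.

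The stretch was not even. In the 30 kb from 340 to 370 kb upstream, which holds the IRF8 elements at 349.0, 360.6 and 364.9 kb, WT H3K27ac covered 73.2% and 82.0% and IRF8KO 0.780% and 0%. WT H3K4me1 covered 100% and 92.6% there and IRF8KO 3.41% and 6.0%, and PU.1 covered 10.2% and 3.65% against 0% in both IRF8KO libraries. IRF8 itself covered 0% to 1.81% at P9, 4.14% to 11.2% at P14, 9.48% to 28.2% in adults and 0% in all 3 macrophage libraries. Within 210 kb upstream of the start WT H3K27ac covered 17.0% and 16.4% and IRF8KO 0.392% and 0%, and H3K4me1 32.1% and 25.2% against 6.53% and 12.8%. The cluster at 340 to 370 kb had the highest WT cover of both marks of the 6 intervals measured.

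From 210 to 320 kb upstream WT H3K27ac covered 23.5% and 23.2%, and IRF8KO 0% and 0.264%. From 370 to 500 kb upstream only 2 IRF8 peaks were listed, both in adult libraries, whereas WT H3K27ac covered 14.4% and 12.4% (IRF8KO 0% and 0.205%). Over the gene body H3K27ac covered 28.6% and 46.8% in WT and 0% in both IRF8KO libraries, and H3K4me1 67.7% and 71.0% against 36.1% and 25.8%. Downstream towards Cyld H3K4me1 differed least, at 14.2% and 9.60% in WT and 3.38% and 15.4% in IRF8KO, where the genotypes overlapped.

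Against other genes, the share of Sall1 and 100 kb on each side under peaks was ranked among 21911 protein-coding genes. For H3K27ac, Sall1 stood at percentile 89.0 and 93.3 in WT and at 14.8 and 5.93 in IRF8KO. The 5.93 is a tie, since IRF8KO replicate 2 had no H3K27ac peak there and 2599 genes were at 0. For H3K4me1 Sall1 stood at 91.5 and 92.2 in WT, and at 26.9 and 24.8 in IRF8KO. For PU.1 it stood at 69.9 and 46.1, and at 17.8 and 14.5 with no peak in IRF8KO. From the WT to the IRF8KO mean, Sall1 dropped by 80.8 points for H3K27ac, and 3 genes by more. For H3K4me1 it dropped by 66.0 points (1 gene by more) and for PU.1 by 41.9 points (308 genes by more). For IRF8 the adult percentiles were 81.3, 95.5 and 79.6 and the P14 values 73.3, 78.7 and 44.9, while macrophage replicates 1 and 2 and all P9 libraries had no peak within 100 kb, so that their ranks are ties at 0.

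**Figure D5:**
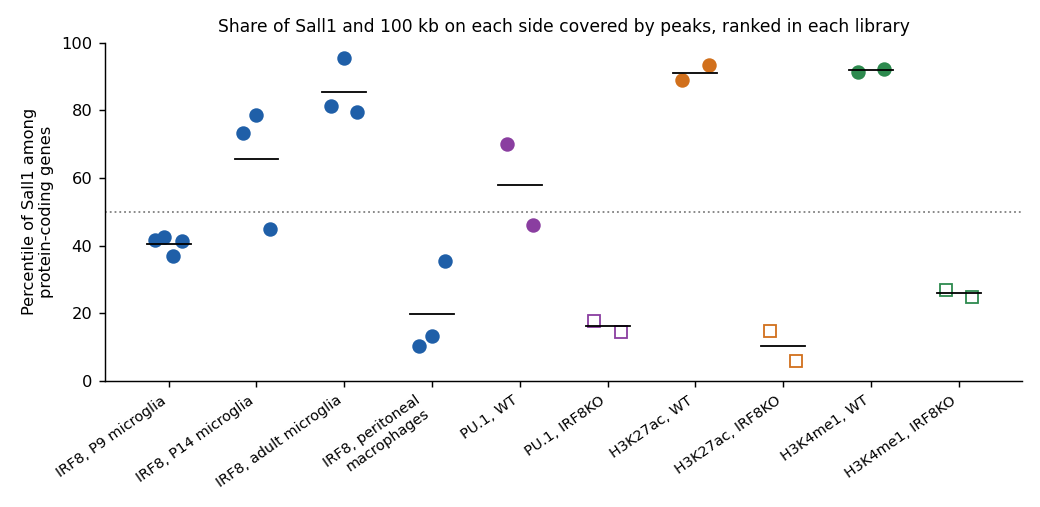
Percentile of Sall1 among 21911 protein-coding genes by the share of the gene and 100 kb on each side under peaks (y axis), for each library (points) of the 10 groups, with the group mean as a line. Open squares are IRF8KO and the dotted line is the middle of all genes; Sall1 sits at 89.0 and 93.3 for WT H3K27ac and at 14.8 and 5.93 for IRF8KO.

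Within 100 kb of Sall1 all 11 WT H3K27ac elements were absent in IRF8KO. Of 4001 genes with at least 10 such elements, 6 had all of them absent: Sall1, Dscam, Hs6st2, Itgb2l, Pcp4 and Plppr4, and the median gene had 30.0% absent. For H3K4me1 Sall1 had 3 of 10 absent, and of 6495 genes with at least 10 elements 91 had a higher share. The genes nearest to Sall1 in their percentiles over all 25 libraries, among 21901 more than 1 Mb away, were Pcp4 (mean difference 10.2 points), Cldnd1 (11.9), Olfr172 (12.1), Olfr90 (12.3) and Olfr91 (12.4), and the median gene differed by 31.2. Neighbouring genes share these windows, and the likeness is a description of these libraries.

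The other spalt genes and the TGF-β pathway, whose signal microglia need to keep their identity, were taken as a list of 15 genes. Within 100 kb of them 64 of 208 WT H3K27ac elements were absent in IRF8KO (30.8%), near the genome-wide 34.0%. Without IRF8KO replicate 1 it was 68.3% (genome 72.9%). Of the spalt genes, Sall2 had 2 of 3 absent, Sall3 1 of 9, and Sall4 had no WT element. Among receptors and signal carriers, Tgfbr2, the type II receptor, had 10 of 27 absent, Smad3, which carries the signal to the nucleus, 11 of 28, and the inhibitor Smad7 8 of 22, and Itgav, an integrin that releases active TGF-β, 1 of 11. No listed gene reached the 11 of 11 of Sall1: the highest was 66.7%.

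For PU.1, 10 of 37 elements near the list were absent (genome 25.1%), and for H3K4me1 8 of 173 (4.62%, genome 13.0%). Leaving out 1 library gave 35.1% to 51.4% for PU.1 (genome 35.6% to 58.6%) and 11.0% to 17.1% for H3K4me1 (genome 19.0% to 44.1%). Marker genes fixed for the cell types were read in the same lists. IRF8 peaks lay within 2 kb of Gata6 and Icam2, markers of peritoneal macrophages, in all 3 macrophage libraries. Gata6 also had one in 1 P14 and 1 adult microglial library and Icam2 in 1 P14 library. Tmem119, a microglial marker, had one in 1 P14 library, 3 adult and no macrophage libraries. P2ry12 and Cx3cr1, also microglial markers, had IRF8 peaks in all 13. Mrc1, a marker of border macrophages of the brain, had them in 1 P9 library, in every older microglial library and in all 3 macrophage libraries, with 5 WT H3K27ac elements. Cd163, another, had them in 1 macrophage library and in no microglial one. Neurod1 and Gfap, of neurons and astrocytes, had none, but Mbp, of oligodendrocytes, had IRF8 peaks in every library except those of P9, and 11 WT H3K27ac elements, and the part of such cells in the values at Sall1 was not tested. No WT H3K27ac element lay within 2 kb of Tmem119, Gata6, Icam2, Cd163, Neurod1 or Gfap, while P2ry12 had 7 and Cx3cr1 11. The source label of the macrophage samples also names microglia, and their titles were followed.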

How the data were processed

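CUT&RUN peak lists of 25 libraries were used, and 4 IgG control groups had no list used here. Per the file headers, the authors called peaks per library with MACS 2.2.7.1 (17 lists) or 2.2.6 (8 lists) against a control, keeping duplicates: 19 lists at q 0.01, 2 at q 0.05, and the 4 H3K4me1 lists as broad regions at p 0.01 with a minimum length of 1000 bp. The submitters' processing notes name mm10, Trim Galore, Bowtie2, deepTools and MACS2. The deposited −log10 p-values and −log10 q-values, fold enrichments (ratio) and pileup signal are the authors'; folds and −log10 p only describe or rank peaks within a list. Fragments per library, from the headers, ranged from 7.25 to 24.7 M, and depth limits weak peaks.

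Repeated entries were counted once, elements joined overlaps of at least 1 bp, and genes came from GENCODE vM21. "Absent" means no overlapping peak in either IRF8KO list, so it depends on the calling threshold. Two-sided exact permutation tests (SciPy 1.17.1) with Benjamini-Hochberg adjustment compared IRF8 counts and shares, in Python 3.11.15 with pandas 2.3.3. The code for overlaps and motifs was tested on simulated data. Named IRF8 elements are the 10 with peaks in most libraries, then by mean percentile, beside the promoter and 1 element in Nod2 chosen after its values were seen; the top 10 WT elements were ranked by mean percentile, and the 6 printed windows, the 6 intervals and the other histone elements named were likewise chosen with values in view. Of the marker genes, 1 is not reported here. The members and lists were chosen with earlier results of these data known. Alternatives changed the threshold, overlap, list length, window and replicates.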

Additional observations from a re-analysis of the deposited data

Results flagged for a closer look

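One value was flagged as far from the rest of its group. P9 replicate 1 listed 0 IRF8 regions in the Sall1 stretch and the other 3 P9 libraries 1 each, so the gap to the nearest library was the whole range of the group. With the other 3 tied, any difference would give this, so it says nothing of size, and 5 other measures of the group, the share of the window among them, were not flagged.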

How the results depend on the processing

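The IRF8 comparisons kept their direction under 80 of 84 alternatives. The 4 exceptions were the share of the window, adult against P14, main value 0.532: it was -0.717 with peaks of −log10 p of at least 10, and -0.758 to 2.65 when 1 library was left out, below 0 without P14 replicate 3 (-0.327), adult replicate 1 (-0.294) or adult replicate 2 (-0.758).

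With the window narrowed to 200 kb on each side, 100% of PU.1 (2 of 2, genome 25.1%) and of H3K27ac elements (25 of 25, genome 34.0%) were absent. Where IRF8KO peaks had to cover 50% of the element, the H3K27ac value over the 500 kb window went from 85.7% to 96.8% (genome 34.0% to 71.2%) and the H3K4me1 value from 41.7% to 72.9% (genome 13.0% to 27.4%); leaving out 1 library gave 85.7% to 96.8% (genome 37.3% to 72.9%) and 48.8% to 62.5% (genome 19.0% to 44.1%). H3K4me1 gave 75.0% with −log10 p of at least 5 (3 of 4 elements, genome 18.0%) and 58.3% with lists of equal length (genome 16.0%). With lists of equal length the H3K27ac length covered fell by 78.3 kb. Overlap of adult IRF8 elements with H3K4me1 ranged from 92.3% to 100% over left-out libraries, and the genome share with no library left out was 91.3%.

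The rank of Sall1 with 500 kb on each side was 60.1 for P9 IRF8, 86.3 and 58.2 for PU.1 in WT and IRF8KO, 99.3 and 28.4 for H3K27ac, and 98.4 and 27.4 for H3K4me1. The list of 15 genes ranged over left-out libraries from 35.1% to 51.4% (PU.1), 37.5% to 68.3% (H3K27ac) and 11.0% to 17.1% (H3K4me1), where the genome shares ranged from 35.6% to 58.6%, 37.3% to 72.9% and 19.0% to 44.1%. The causes of these changes were not tested.

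Deviations of same-numbered replicates from their group means correlated weakly. For adult and P14 the values were 0.0354 to 0.181, and 3 of 3 libraries correlated best with their own number. For adult and macrophages they were 0.0395 to 0.0836 (2 of 3), and for adult and P9 -0.00465 to 0.0196 (2 of 3). P14 and P9 gave -0.0216 to -0.00204 (0 of 3). WT and IRF8KO gave 0.0498 for PU.1, 0.0923 for H3K27ac and -0.0576 for H3K4me1. With 2 libraries per group the deviations are mirror images, so a match by number follows from the sign alone. Whether replicates of the same number belong together is left unsettled. With the replicate number as a block, the exact p was 0.25 for all 4 counts; the share differences were 6.99, 0.532, 7.52 and 10.7 (exact p 0.25, 0.75, 0.5 and 0.25). For WT against IRF8KO, regions in the Sall1 stretch differed by replicate number by -9 and -4 (PU.1), -105 and -99 (H3K27ac) and -48 and -7 (H3K4me1). No paired analysis was made for the absent elements, which were counted over both libraries of a genotype.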
